A study of Mus musculus with 60 samples.

Results

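The comparison concerned H3K27me3 in Tet1 MUT cells at day 5 of neural differentiation, set against WT cells of the same day. Its members are the 4 CUT&RUN libraries made without XAV, CM59 and CM69 for MUT and WT70 and WT72 for WT. They were chosen by genotype and day, and make up 4 of the 60 samples of the series and 4 of its 30 H3K27me3 libraries. CUT&RUN uses an antibody to direct a nuclease to the chromatin it binds, so that the released DNA marks where the histone mark sits. All lines were male mouse embryonic stem cells of an F1 cross of B6 and 129S6, with the Tet1 tm1Koh background named in the labels of both genotypes. MUT cells carried 2 substitutions in the catalytic site of TET1, put into both alleles by Cas9 and a donor oligonucleotide, and made full-length TET1. Each MUT line is a single edited clone, and the labels do not say whether the WT lines had gone through mock editing. Embryonic stem cells were kept on mouse embryonic fibroblast feeders, freed of them before plating, moved to defined neural medium with bFGF for the first days, and collected on day 5 as anterior neural progenitor cultures (antNPCs). No group received XAV, a Wnt pathway inhibitor, in this comparison. Only KO lines (Tet1 knockout) of day 5 and libraries of other times are set beside them where named.

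H3K27me3 is written by Polycomb repressive complex 2 and lies over CpG-rich promoters of developmental genes that are off or poised. As embryonic stem cells take a neural fate, regulators of mesoderm and endoderm keep or gain the mark, and neural genes that turn on lose it. TET1 oxidises 5-methylcytosine and so takes part in DNA demethylation, but it also works with repressive complexes in ways that do not need its enzymatic activity. A catalytic mutant removes the first role and can leave the second in place.

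The edit itself is shown because it defines the genotype. The guide matched 1 place in Tet1 without mismatch, on the plus strand at chr10:62814460-62814479 (GRCm38.p6), next to a GGG PAM. The donor covered chr10:62814427-62814521, in the exon at 62814436 to 62814573 and the first bases of the neighbouring intron. Tet1 runs on the minus strand, so the sequences below are the reverse complement of the coding strand. Capitals mark the 3 bases at which donor and reference differ.
Tet1 guide: gtgaatgtccttgtgagaat
Tet1 donor: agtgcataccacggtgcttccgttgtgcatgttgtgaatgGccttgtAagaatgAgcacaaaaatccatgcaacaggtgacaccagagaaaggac
Tet1 reference: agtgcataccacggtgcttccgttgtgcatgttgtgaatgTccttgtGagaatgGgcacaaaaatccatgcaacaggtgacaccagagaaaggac
Counted from the 5′ end of the donor, the reference base first, the differences were T41G, G48A and G55A. In the annotated transcript of 2007 residues, where this is exon 9 of 11, they gave D1622A and H1620Y, both in the iron-binding site, and the silent A1617A. In the transcript of 2039 residues, where it is exon 11 of 13, the same changes read D1654A and H1652Y. The silent base lies inside the PAM. Peak files carry no reads over this site, so the genotype labels could not be checked against the libraries.

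The 2 MUT lines differed far more in peak number than the 2 WT lines. CM59 had 2847 peaks and CM69 had 1191, against 1270 in WT70 and 1385 in WT72. The MUT lines averaged 2019 ± 1171 peaks and the WT lines 1327.5 ± 81.3 (SD, n = 2 each), a ratio of geometric means of 1.39 (exact permutation test, two-sided, p = 1, where 0.33 is the smallest value that 2 lines against 2 allow). Peaks covered 15.4 Mb in CM59 and 8.61 Mb in CM69, against 7.61 Mb in WT70 and 8.90 Mb in WT72. Median widths were 4165 and 6084 bp in the MUT lines, against 4900 and 5094 bp in the WT lines. Read depth is not given by the deposited files. Of the peaks of a library, 76.8% to 80.7% lay at a promoter (1.5 kb to either side of a protein-coding start), against 13.0% to 16.2% after a shift of 1 Mb. In each library 0 of 25 housekeeping promoters had a peak, and 97.4% to 100% of 39 Hox promoters did.

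The larger number in CM59 came with a lower calling limit. To put libraries on 1 scale, the total signal of a region was divided by the library's median over the 926 regions in which all 4 libraries had a peak, and the ratio is called relative signal. The weakest called peak stood at 16.4% of that median in CM59 and 54.8% in CM69, against 49.1% in WT70 and 42.6% in WT72. With only the 1191 strongest peaks of each library kept, the limits were 52.1% and 54.8% in the MUT lines, against 52.5% and 50.1% in the WT lines. Counts of called regions are therefore given for this equal number beside all peaks. A region with no peak is one below its library's limit, and not one shown to lack the mark.

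**Figure D1:**
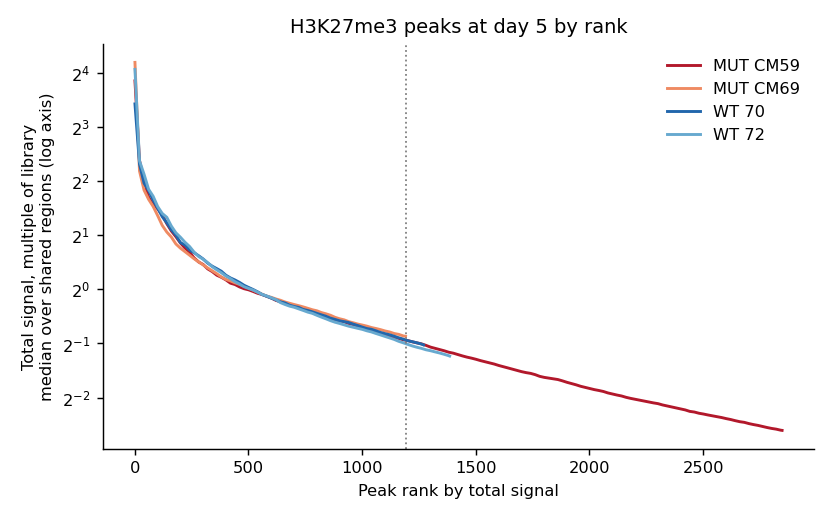
Peaks of each day 5 library by rank (horizontal axis) and total signal as a multiple of the library's median over shared regions (vertical axis, log scale). The lines run close together to the dotted line at rank 1191, the end of CM69, and the 2847 peaks of CM59 continue to 16.4% of the median.

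Merged over the 4 libraries, the peaks formed 2783 regions, of which 926 had a peak in all 4. CM59 alone held 1361 regions (48.9%), and CM69 alone held 0. These CM59 regions were narrow, with a median of 3273.5 bp against 7564 bp for the shared regions, and 77.1% lay at a promoter. Both MUT lines and neither WT line had a peak in 83 regions (2.98% of all regions), and the reverse held in 9 (0.323%). At the equal number there were 1386 regions, 861 of them called in all 4 libraries, and the corresponding counts were 75 (5.41%) and 64 (4.62%). Regions with a peak in 1 MUT and 1 WT line, a split that genotype does not predict, numbered 155 with all peaks and 45 at the equal number. From all peaks to the equal number, MUT-only regions thus went from 83 to 75 and WT-only regions from 9 to 64. The balance of the 2 directions depended on how the libraries were made equal: by highest signal the counts were 49 and 67, and with the same covered bases 11 and 110.

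The equal-number libraries grouped by genotype in the bases they covered. The Jaccard index (shared over joint bases) was 0.690 within MUT and 0.726 within WT, against 0.613 to 0.664 for the 4 pairs of a MUT with a WT line. With all peaks the index was 0.493 within MUT and 0.711 within WT, and the mixed pairs lay at 0.457 to 0.654. Over the 926 shared regions, log2 relative signal differed between the MUT lines with an SD of 0.30 and between the WT lines with an SD of 0.28, against 0.35 to 0.44 across genotypes. The 6 pairs share libraries, so these values are a description with no test.

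At the equal number 72 promoters had a peak in both MUT lines and in neither WT line, which is 5.80% of the 1242 promoters called in at least 1 library, and 43 (3.46%) had the reverse. With the same covered bases the counts were 17 and 82, which turns the balance. With all peaks the counts were 83 of 2302 (3.61%) and 7 (0.304%). Of the 72 promoters, 50 had no peak in either WT line with all peaks too, 21 had a weaker one in 1 WT line, and 1 had a peak in all 4 libraries. Of the 43 promoters with the reverse pattern, 38 had a weaker peak in CM59, and 5 had none in either MUT line. Neighbouring promoters can share a peak, so these counts are not of independent events.

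Among 96 neuronal channel, receptor and synapse genes, 6 had a peak in MUT only at the equal number, and 2 in WT only, out of 49 with a peak in any of the 4 libraries. Over all 1242 promoters with such a peak, 72 (5.80%) and 43 (3.46%) had these patterns. The list holds Brsk2, Kif17 and Sh2d5, which the study shows as examples of H3K27me3 gain in KO cells of this series. These members are therefore not independent of the data. The share of the list with a peak was 41.7% in both CM59 and CM69, against 33.3% in WT70 and 36.5% in WT72. Over all promoters with a call, shares were 46.1% and 44.3% in the MUT lines, against 41.4% and 42.6% in the WT lines. The MUT-only genes of the list included Brsk2, Hcn2, Hcn4, Kcnd3 and Kif17. Brsk2 encodes a brain kinase that sets neuronal polarity, and its relative signal was 0.546 in CM59 and 0.579 in CM69, with no peak in WT70 or WT72. Hcn4, a pacemaker channel gene, had 0.600 and 0.658 in the MUT lines and no peak in the WT lines. Kcnd3, an A-type potassium channel gene, had 0.786 and 0.822 in the MUT lines and likewise none in the WT lines. Kif17 and Sh2d5 share 1 region, which stood at 1.51 in CM59 and 0.713 in CM69 and had no peak in either WT line. The CM69 peak lay at the Kif17 promoter and not at that of Sh2d5, which had a peak in CM59 alone. Hcn2 had 0.566 and 0.549 in the MUT lines and a peak of 0.441 in WT72, under the limit at the equal number. Apart from the Kif17 value of CM59, these MUT values lay between 0.546 and 0.822, above limits of 52.1% and 54.8% of the median. KO lines of day 5 (KO1 and KO15) had 1.02 and 0.861 at Brsk2 and 1.89 and 2.06 at Kif17, on the scale of their own medians.

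The 10 MUT-only promoters of best rank at the equal number were those of Cdkn2b, Ap5b1, Gbf1, Aqp2, Mto1, Prss16, Asic2, Hes3, Zbtb16 and Creb5. The first 5 lie at the edge of wide regions that had peaks in all 4 libraries, so that for them the pattern is one of peak borders. Asic2, a proton-gated channel gene, had 1.06 and 1.09 in the MUT lines, against no peak in WT70 and 0.459 in WT72. Zbtb16, a transcriptional repressor gene, had 0.882 and 1.14 in the MUT lines and no peak in the WT lines. Creb5 had 0.964 and 0.976 in the MUT lines and no peak in the WT lines. Hes3, a Hes family repressor of neural progenitors, had 1.01 and 1.00 in the MUT lines, against 0.688 and 0.694 in the WT lines, whose peaks did not reach the promoter, and per covered base its log2 difference of 0.54 turned to -0.05.

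Promoters with a peak in WT only at the equal number, taken by rank, included Tbx5, Irf4, Gnas, Cbln2, Wnt2, Lefty1, Adm, Adam33 and Lbx2. Tbx5, a T-box factor of heart and forelimb, had 0.707 in CM59 and no peak in CM69, against 2.64 in WT70 and 2.92 in WT72. Lefty1, a secreted Nodal antagonist, had 0.391 in CM59 and no peak in CM69, against 0.841 and 0.778 in the WT lines. In the Nodal, BMP and TGF-beta list Lefty1 and Chrd had this pattern, while the share of its 46 genes with a peak averaged 22.8% in both genotypes. Chrd, a BMP antagonist, had 0.424 in CM59 and no peak in CM69, against 0.662 and 0.627 in the WT lines. Wnt2 had 0.513 in CM59 and no peak in CM69, against 0.794 and 0.824 in the WT lines. Tbx5 thus lay further above the calling limit in both WT lines than Lefty1, Chrd and Wnt2. Of 40 heart, muscle and blood mesoderm genes, 30 of them with a peak, Tbx5, Myod1 and Tcf21 had this pattern and 0 had the reverse. Over all 1242 promoters with a peak the counts were 43 (3.46%) and 72 (5.80%). Myod1 and Tcf21, like Tbx5, had a weaker peak in CM59 with all peaks, at 0.317 and 0.233. With all peaks 1 gene of the list was WT-only (Meox2) and 1 MUT-only (Kdr). The share of that list with a peak was 60% in CM59 and 62.5% in CM69, against 70% in both WT lines. With all peaks it was 75% and 62.5% in the MUT lines, against 72.5% and 75% in the WT lines, so the separation was seen at the equal number alone. The share of the Wnt pathway list was likewise apart at the equal number alone. There it was 29.6% and 27.8% in the MUT lines, against 33.3% and 35.2% in the WT lines.

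**Figure D2:**
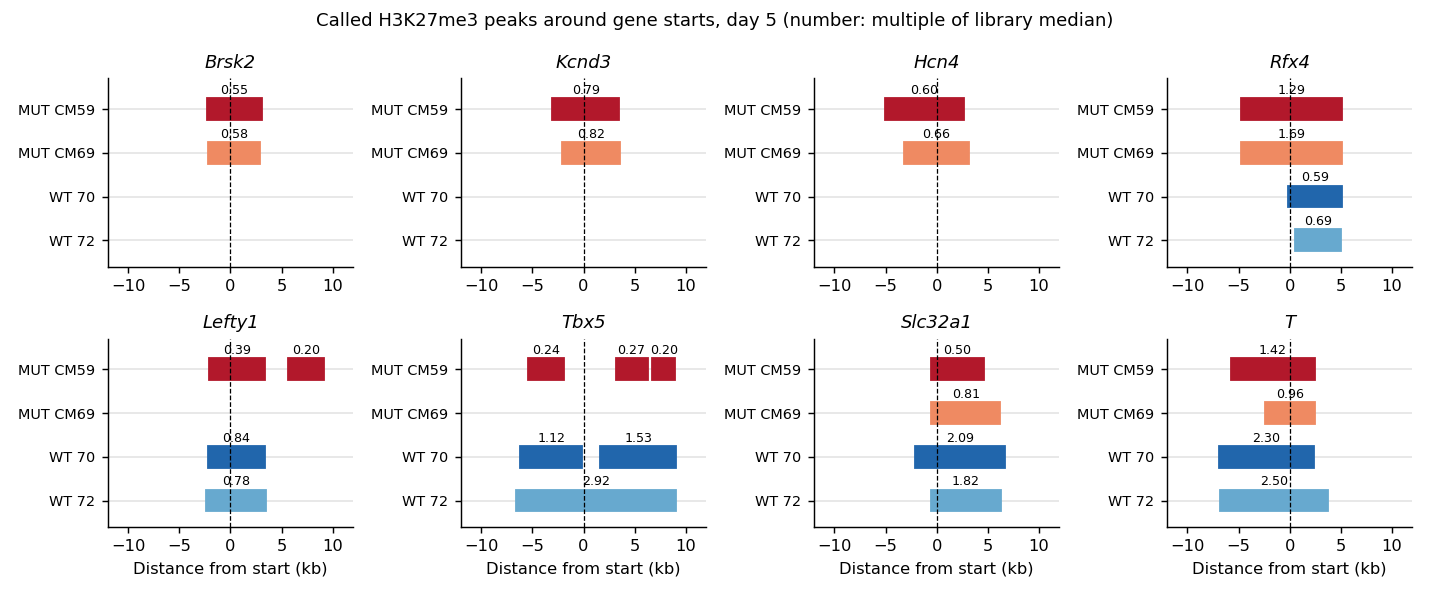
Called peaks as bars at their distance from the start of 8 genes (horizontal axis, kb, transcription to the right), 1 row per library, with each peak's total signal as a multiple of the library median. Brsk2, Kcnd3 and Hcn4 have peaks in the MUT lines alone, Lefty1 has them in both WT lines and a weaker one of 0.391 over the start in CM59, and the peak at Rfx4 reaches across the start in both MUT lines and begins at -0.175 kb in WT70 and at 0.487 kb in WT72.

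Promoters of 5 genes are printed, 2 called in MUT only, 1 with more signal in MUT and 2 with less, because the mark's usual substrate is CpG-rich DNA. Each is the 250 bases before the start in RefSeq (GRCm38.p6), on the gene's strand, here plus for all 5, with every CG in capitals.
Brsk2, chr7:141949501-141949750: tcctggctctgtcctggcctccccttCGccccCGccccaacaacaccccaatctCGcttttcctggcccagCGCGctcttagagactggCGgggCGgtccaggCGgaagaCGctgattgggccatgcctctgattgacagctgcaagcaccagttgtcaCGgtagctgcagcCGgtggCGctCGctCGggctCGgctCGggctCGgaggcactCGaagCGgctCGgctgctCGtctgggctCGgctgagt
Hcn4, chr9:58822699-58822948: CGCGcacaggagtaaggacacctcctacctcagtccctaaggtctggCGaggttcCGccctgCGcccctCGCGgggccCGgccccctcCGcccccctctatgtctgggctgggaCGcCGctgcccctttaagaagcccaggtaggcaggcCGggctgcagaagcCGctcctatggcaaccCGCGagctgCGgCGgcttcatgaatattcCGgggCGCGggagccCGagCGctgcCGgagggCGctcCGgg
Rfx4, chr10:84755798-84756047: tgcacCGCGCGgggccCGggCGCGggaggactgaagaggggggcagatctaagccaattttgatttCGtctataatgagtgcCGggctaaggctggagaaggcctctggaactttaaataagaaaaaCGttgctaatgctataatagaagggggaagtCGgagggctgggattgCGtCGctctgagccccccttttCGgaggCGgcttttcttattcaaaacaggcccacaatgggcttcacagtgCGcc
Slc32a1, chr2:158610508-158610757: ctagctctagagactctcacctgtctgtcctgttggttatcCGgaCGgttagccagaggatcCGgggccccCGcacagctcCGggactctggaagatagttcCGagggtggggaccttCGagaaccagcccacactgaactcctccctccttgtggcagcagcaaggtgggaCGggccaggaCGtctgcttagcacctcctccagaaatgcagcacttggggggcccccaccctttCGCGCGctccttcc
T, chr17:8434173-8434422: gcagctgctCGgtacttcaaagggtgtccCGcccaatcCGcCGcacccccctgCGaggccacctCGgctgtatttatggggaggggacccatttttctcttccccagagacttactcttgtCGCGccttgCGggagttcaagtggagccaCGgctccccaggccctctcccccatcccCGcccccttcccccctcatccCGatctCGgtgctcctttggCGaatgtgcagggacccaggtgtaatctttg
They held 22, 25, 15, 12 and 14 CG dinucleotides in the order printed, against a median of 6 and quartiles of 2 and 16 over 32851 RefSeq promoters, of which 92.1% held at least 1. MUT peaks covered all 250 bases of each window, and so did WT peaks at Slc32a1 and T. WT peaks covered 0 bases at Brsk2 and Hcn4, and at Rfx4 161 bases in WT70 and 0 in WT72. Another RefSeq start of Rfx4, not printed, held 2 CG dinucleotides in its window, and no library had a peak there. Whole regions did not differ in this way, since median CpG density at the equal number was 31.0 per kb in the 75 MUT-only regions, 28.8 in the 64 WT-only regions and 29.5 in those called in all 4 libraries.

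In the 926 shared regions, relative signal was compared by limma on the log2 scale. Of these regions, 14 were lower (1.51%) and 3 higher (0.324%) in MUT at adjusted p under 0.05, or 17 in all (1.84%). At an unadjusted p under 0.05, 196 regions differed, 117 lower and 79 higher. Both MUT lines lay below both WT lines in 281 regions (30.3%) and above them in 227 (24.5%). The same number of peaks, quantile normalisation and loess normalisation each left 0 regions in either direction at adjusted p under 0.05 (170 to 173 at an unadjusted p under 0.05), while log2 differences moved little under loess, to -1.21 at Emx2 and -1.59 at Slc32a1. Leaving out 1 line also left 0, but the other group alone then gives the spread, so this says nothing of stability. Differences were smaller in other measures of signal. By highest signal the 14 lower regions lay at -0.73 to -0.04 and the 3 higher ones at 0.32 to 0.78, and per covered base at -0.97 to 0.10 and 0.31 to 1.14, with 0 lower and 1 higher past the test. Differences also moved with signal strength, with a median log2 difference of 0.06 in the 232 weakest regions and -0.15 in the 232 strongest, whose part in the results was not tested.

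**Figure D3:**
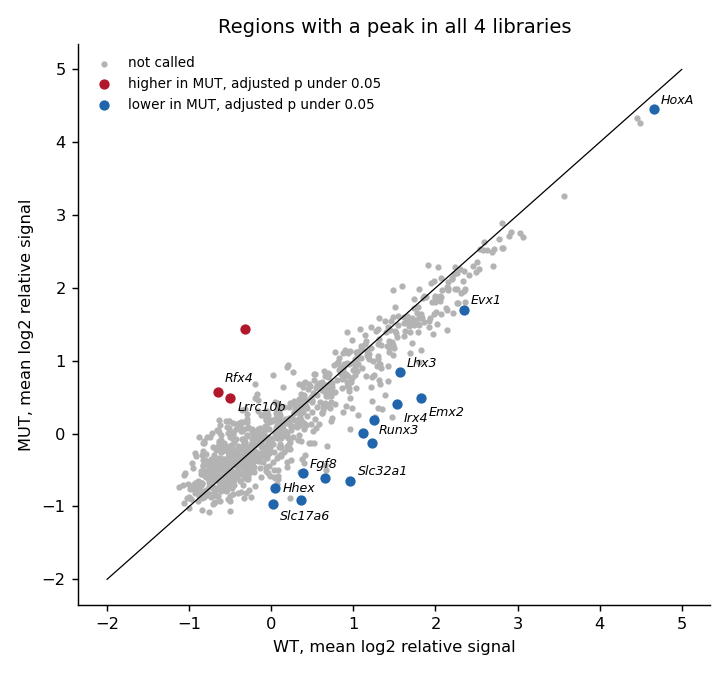
Mean log2 relative signal of the MUT lines (vertical axis) against that of the WT lines (horizontal axis) in the 926 regions called in all 4 libraries, with the diagonal as equal signal. The 14 regions called lower in MUT, 10 of them named, lie below the diagonal and the 3 called higher above it, while the strongest regions run slightly below it as a group.

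The regions called lower in MUT included a regulator of the forebrain, several early patterning factors and 2 vesicular transporters, 1 for GABA and 1 for glutamate. Emx2, a homeobox factor of the dorsal telencephalon, had a relative signal of 1.25 in CM59 and 1.59 in CM69, against 3.59 in WT70 and 3.52 in WT72 (log2 difference -1.33 ± 0.15 SE, limma adjusted p = 0.0364). Its region ran from 59450456 to 59473464 on chromosome 19. Slc32a1, the vesicular GABA transporter, had 0.502 and 0.813 in the MUT lines, against 2.09 and 1.82 in the WT lines (log2 difference -1.61 ± 0.24 SE, adjusted p = 0.0364). Slc17a6, a vesicular glutamate transporter, had 0.477 and 0.553 in the MUT lines, against 1.03 and 1.00 in the WT lines, a log2 difference of -0.98 ± 0.14. The groups did not overlap at any of these 3 genes, which adds nothing to the test, as both rest on the same values.
Runx3, a Runt factor of blood and sensory neurons, had 0.793 and 1.05 in the MUT lines, against 2.46 and 2.22 in the WT lines, a log2 difference of -1.36 ± 0.18. Irx4, an Iroquois factor of the ventricular heart, had 1.42 and 1.23 in the MUT lines, against 3.14 and 2.66 in the WT lines, a log2 difference of -1.13 ± 0.15. Lhx3, a LIM homeobox factor of motor neurons and pituitary, had 1.81 and 1.77 in the MUT lines, against 3.03 and 2.89 in the WT lines, a log2 difference of -0.72 ± 0.12, which was -0.07 by highest signal and -0.05 per covered base. Adjusted p was 0.0364 for Slc17a6, Runx3 and Irx4 and 0.0456 for Lhx3. In none of these did a MUT line reach a WT line, but that was so in 281 of the 926 shared regions (30.3%).

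Of the 14 regions, 4 lay at no protein-coding promoter. Nearest starts were those of Pou3f3 (7216 bp away), Tmem33 (36018 and 26208 bp, for a pair of regions on chromosome 5) and Tbx5 (25657 bp), which names them by position and not as targets. The region near Tbx5 had 1.31 and 0.983 in the MUT lines, against 2.26 and 2.52 in the WT lines, a log2 difference of -1.07 ± 0.18 that was -0.07 by highest signal and -0.21 per covered base. The HoxA region, which spans the promoters of Hoxa3 to Hoxa13, was called as well, at 21.8 and 22.0 in the MUT lines against 25.9 and 24.7 in the WT lines. Its log2 difference of -0.21 ± 0.03 became -0.01 after loess normalisation and 0.02 when signal was taken per covered base, so no direction is given for it.

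In 3 regions the mark was higher in MUT. Rfx4, an RFX factor of neural progenitors, had 1.29 in CM59 and 1.69 in CM69, against 0.587 in WT70 and 0.690 in WT72 (log2 difference 1.22 ± 0.18 SE, limma adjusted p = 0.0364). Its peak covered 9883 and 9829 bp in the MUT lines, against 5264 and 4568 bp in the WT lines. Lrrc10b, a gene of leucine-rich repeats, had 1.42 and 1.39 in the MUT lines, against 0.763 and 0.656 in the WT lines (log2 difference 0.99 ± 0.14 SE, adjusted p = 0.0364). The third region lay 37151 bp from the start of Ulk4 and had 2.50 and 2.92 in the MUT lines, against 1.11 and 0.580 in the WT lines, a log2 difference of 1.75 ± 0.30 (adjusted p = 0.0456). The 7 further regions of lowest p in this direction did not pass, with adjusted p of 0.0581 to 0.0686. They included Npas3, a neuronal bHLH-PAS factor, and Nat8l, which makes the neuronal metabolite N-acetylaspartate, with log2 differences of 0.83 ± 0.18 (-0.0634 per covered base) and 0.74 ± 0.14.

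Genes of the primitive streak and nascent mesoderm, which neural cultures normally keep off, leaned towards less of the mark in MUT. Of 19 genes on this list, 11 had a promoter in a shared region. Of the 11, 9 had a lower mean in MUT, against 507 of all 926 shared regions. The median log2 difference of the 11 was -0.37, against -0.03 over all shared regions. Evx1 and Fgf8 passed the test, and 0 passed in the other direction. Evx1, a homeobox factor of the posterior streak, had 3.16 and 3.34 in the MUT lines, against 5.35 and 4.81 in the WT lines (log2 difference -0.64 ± 0.11 SE, limma adjusted p = 0.0456). Fgf8, the growth factor needed for cells to leave the streak, had 0.704 and 0.667 in the MUT lines, against 1.20 and 1.42 in the WT lines (log2 difference -0.93 ± 0.15 SE, adjusted p = 0.0456). T (Brachyury) had 1.42 and 0.957 in the MUT lines, against 2.30 and 2.50 in the WT lines, and its log2 difference of -1.04 ± 0.21 did not pass (adjusted p = 0.0683). Eomes, a T-box factor of the early streak, had 1.27 and 1.38 in the MUT lines, against 1.82 and 1.61 in the WT lines, also not past the test at -0.37 ± 0.14 (adjusted p = 0.195). After quantile or loess normalisation 9 of the 11 were still lower, with medians of -0.29 and -0.31, and by highest signal or signal per covered base all 11 were. In bulk chromatin, fewer cells with the mark and less of it in each cell cannot be told apart.

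Endoderm and later mesoderm lists leaned the same way, but much less so after loess normalisation. Of all 926 shared regions 507 were lower in MUT, and 466 after loess normalisation. Of 11 measured endoderm genes 10 were lower in MUT (median log2 difference -0.19), and Hhex passed the test. Hhex, a homeobox factor of the anterior endoderm, had 0.611 and 0.579 in the MUT lines, against 1.07 and 0.993 in the WT lines (log2 difference -0.80 ± 0.13 SE, limma adjusted p = 0.0456). Foxa2, a pioneer factor of endoderm and floor plate, had 3.17 and 2.28 in the MUT lines, against 4.49 and 4.34 in the WT lines, and did not pass (-0.72 ± 0.17, adjusted p = 0.0849, and 0.0251 per covered base). After loess normalisation 6 of the 11 were lower, with a median of -0.0047. After quantile normalisation and per covered base 6 were lower too (medians -0.04 and -0.02), but by highest signal 9 were (median -0.20). Of 24 measured heart, muscle and blood genes 20 were lower (median -0.17) and 0 passed, against 14 lower after loess normalisation (median -0.02). Gata4, a cardiac and endodermal factor, had 3.28 and 3.19 in the MUT lines, against 4.33 and 4.52 in the WT lines (-0.45 ± 0.10, adjusted p = 0.0717).

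**Figure D4:**
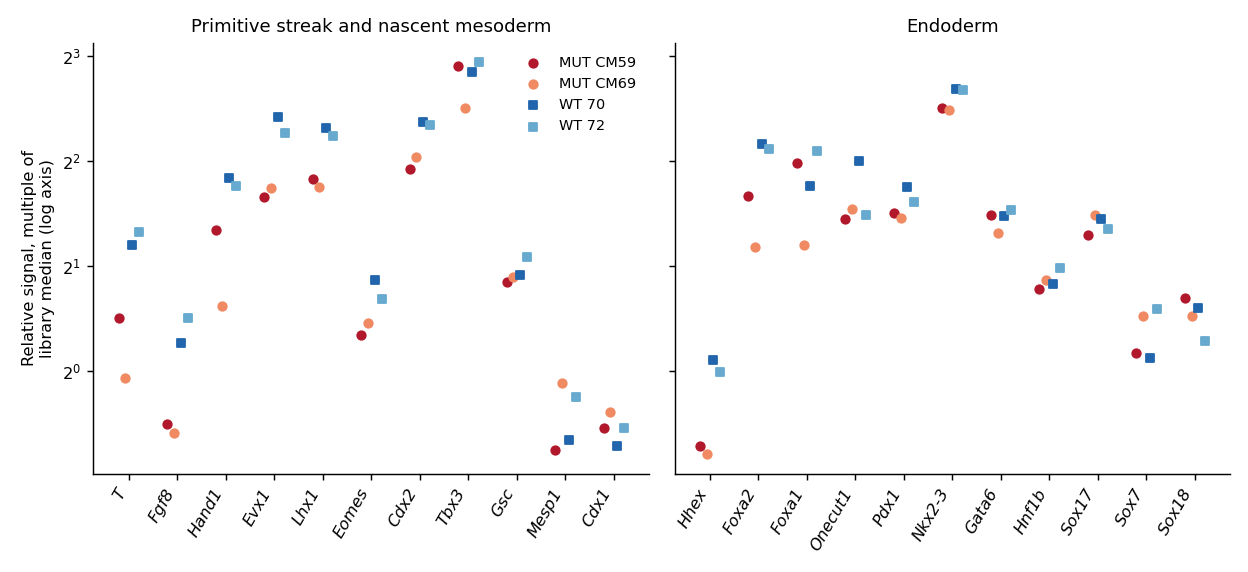
Relative signal (vertical axis, multiple of the library median, log scale) of primitive streak genes (left) and endoderm genes (right) with a promoter in a shared region, ordered by MUT minus WT difference, with 1 point per library (circles MUT, squares WT). Both MUT points lie below both WT points from T to Cdx2 and at Hhex, Foxa2, Pdx1 and Nkx2-3. The groups overlap at Foxa1 and Onecut1 and at the right of each panel.

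The neuroectoderm and neuronal transcription factor lists had more genes lower than higher in MUT before loess normalisation, and not after it. The same held before it for all shared regions, 507 of 926 of which were lower, and 466 after it. Of 44 measured neuroectoderm genes 28 were lower in MUT (median -0.08), and after loess normalisation 21 were (median 0.01), with Emx2 the 1 gene past the test. Sox1, the earliest neuroectoderm factor, had 2.99 and 3.01 in the MUT lines, against 3.31 and 3.26 in the WT lines (-0.13 ± 0.11, adjusted p = 0.52). Pax6, a forebrain and eye factor, had 4.10 and 4.44 in the MUT lines, against 3.37 and 4.64 in the WT lines (0.11 ± 0.16, adjusted p = 0.729). Neuronal transcription factors gave 31 of 42 lower (median -0.10) and 21 after loess normalisation, and Lhx3 passed. Neuronal channel, receptor and synapse genes gave 18 of 30 lower (median -0.04), with Slc32a1 and Slc17a6 past the test and 0 higher. Axon guidance genes gave 5 of 11 lower (median 0.17). Of 14 Wnt pathway genes 8 were lower, and of 8 in the Nodal, BMP and TGF-beta pathway 6 were, with 0 of either past the test. Of 39 Hox genes, in 11 regions, 37 were lower (median -0.21), and the 9 past the test all lie in the HoxA region, but 22 were lower after loess normalisation and 3 per covered base, so no direction is given for the list. The remaining lists were neural crest and surface ectoderm (7 of 11 lower), pluripotency (4 of 4), and TET, DNMT and Polycomb genes (2 of 3), again with 0 past the test.

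Genes that the study names outside these groups were mostly without a peak or near the limit. Bdnf, Tubb3 and Npas4, a neurotrophin, a neuronal tubulin and an activity-dependent factor, had a peak in CM59 alone, at 0.169, 0.340 and 0.236. For ChIP-qPCR of SUZ12 and TET1 the study took Npr3, a natriuretic peptide receptor gene, as its negative control. The position of that amplicon was not compared with the peaks here, and binding of SUZ12 or TET1 is another measure than H3K27me3. Npr3 had 0.994 and 1.20 in the MUT lines, against 0.769 and 0.726 in the WT lines (0.55 ± 0.15, limma adjusted p = 0.109, and -0.0306 per covered base). Oxtr, the oxytocin receptor gene, had 0.378 in CM59 and no peak in CM69, against 0.527 and 0.502 in the WT lines. The list of 31 also held 11 genes with no promoter peak in any of the 4 libraries, such as Sox2 and Twist1.

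The deposited region lists sort regions by what happened in KO cells. They are regions that lost the mark in KO at day 0 and did not gain it later (loss-loss, 792), lost it and then gained it (loss-gain, 748), gained it only (gain-gain, 1443), or gained it at day 5 with XAV (gain d5X, 1897). The lists other than gain d5X were chosen on KO and WT libraries, the WT libraries of day 5 among them. A MUT difference from WT in them is thus not independent of that choice. By its name the gain d5X list rests on KO and WT libraries with XAV, and those WT libraries came from the same WT lines. At the equal number, loss-loss regions had a peak in 34.7% (CM59) and 33.6% (CM69), against 38.0% (WT70) and 39.1% (WT72). Gain-gain regions had 24.0% and 23.4% in the MUT lines, against 18.3% and 19.3% in the WT lines. Loss-gain regions had 37.4% and 38.0% in the MUT lines, against 31.8% and 34.2% in the WT lines, and gain d5X regions 41.2% and 40.0%, against 34.3% and 36.3%. MUT thus lay 4.42 points below WT in the first list and 4.68 to 5.32 points above it in the others, with no overlap of lines. The 310 merged regions in no list had 27.7% and 25.8% in the MUT lines, against 34.2% and 32.9% in the WT lines, a difference of -6.77 points. These regions come from the peaks of the same 4 libraries with the deposited lists taken out, so they are no independent control. At a fixed peak number, a higher share in some lists also leaves fewer peaks for other regions. KO lines at the same peak number held 27.4% and 27.5% of loss-loss regions, 29.4% and 28.7% of gain-gain, 40.9% and 39.4% of loss-gain and 40.2% and 39.8% of gain d5X. MUT and KO are both read against the same WT libraries.

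**Figure D5:**
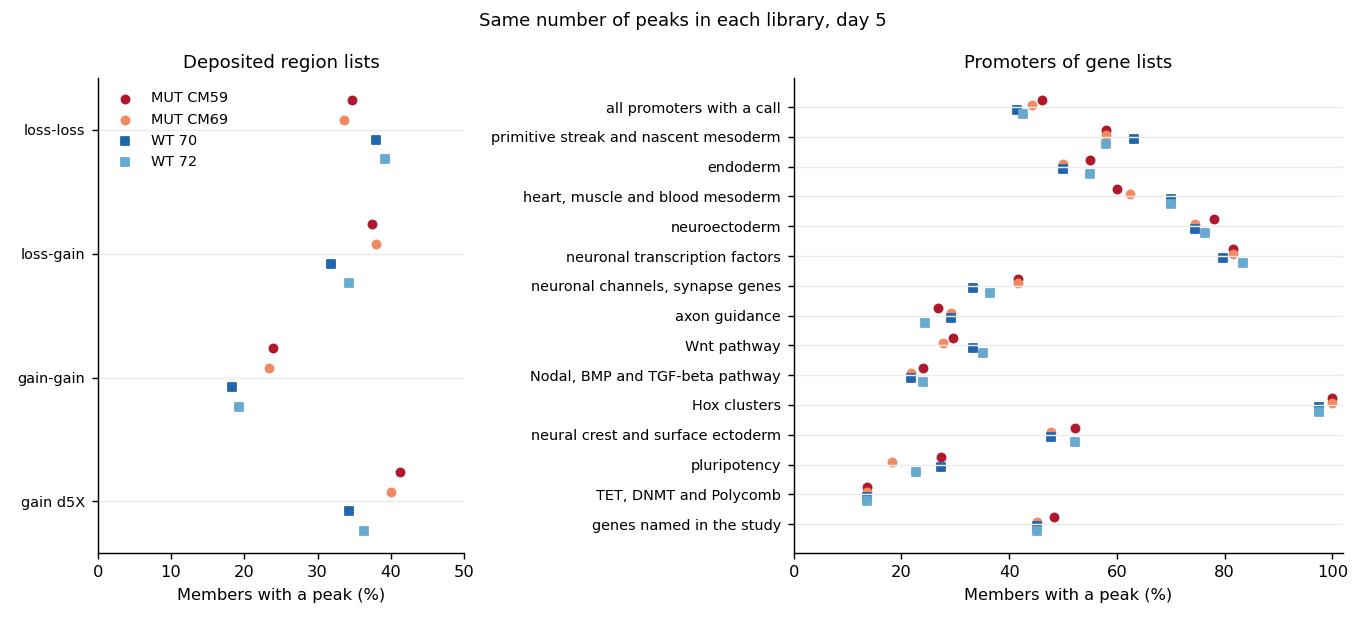
Share of each deposited region list (left) and of the promoters of each gene list (right) with a peak (horizontal axis, %) when each library keeps its 1191 strongest peaks, 1 point per library (circles MUT, squares WT). Circles lie left of squares for loss-loss regions, for heart, muscle and blood mesoderm and for the Wnt pathway. They lie right of squares for the gained lists, all promoters with a call, neuronal channels and synapse genes, and Hox clusters.

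Relative signal leaned like the shares in 3 of the lists and not in gain d5X. Of 278 shared regions in the loss-loss list 207 were lower in MUT (median log2 difference -0.16), and 12 of the 14 regions called lower were among them. The list held 278 of all 926 shared regions, and its choice drew on the same WT libraries. Of 233 in loss-gain 153 were higher (median 0.10) and 0 were called, and of 257 in gain-gain 157 were higher (median 0.07), with 2 called higher and 1 lower. Of 673 in gain d5X 351 were higher (median 0.02), with 1 called higher and 5 lower. All shared regions gave 507 lower and 419 higher, with 14 called lower and 3 called higher. With all peaks, the shares of the 2 MUT lines lay far apart. Loss-loss regions had a peak in 60.7% (CM59) and 33.6% (CM69), against 39.3% and 43.2% in the WT lines. Gain-gain regions had one in 70.1% and 23.4%, against 20.0% and 23.4%.

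Libraries of other times gave a look at the same regions outside the libraries that chose them. Those of day 3 and of day 5 with XAV came from the same lines, so genotype and clone cannot be told apart in them. Of the 75 MUT-only regions at the equal number, 68.0% (CM59) and 48.0% (CM69) had a peak in the MUT libraries of day 3, against 16% (WT70) and 37.3% (WT72) in the WT libraries. With XAV at day 5, they had a peak in 18.7% (CM59) and 81.3% (CM69) of regions, against 41.3% (WT70) and 61.3% (WT72), and here the groups overlapped. At day 2 they overlapped too, at 81.3% (CM40) and 64.0% (CM59) in MUT, against 77.3% and 73.3% in WT, as they did at day 0. The 64 WT-only regions had a peak in 65.6% and 43.8% of regions in the MUT libraries of day 3, against 43.8% and 59.4% in the WT libraries, and in 7.8% and 67.2% with XAV in MUT, against 85.9% and 93.8% in WT. Peak numbers differed, at 1631 and 1452 for MUT and 969 and 1135 for WT at day 3, and 704 and 1924 for MUT and 1407 and 1717 for WT with XAV. Of the 14 regions called lower at day 5, 11 had a peak in all 4 libraries of day 3, and 10 of these were lower in MUT (median -0.64, against 0.12 over 692 shared regions). With XAV 7 could be measured and 6 were lower (median -1.18, against -0.12 over 617). Of the 3 regions called higher, 2 could be measured at day 3 and both were higher (median 0.65), while with XAV 1 of 2 was higher (median 0.08) and Rfx4 stood at -0.13.
Emx2 had 1.61 and 1.07 in the MUT lines at day 3, against 3.24 and 3.61 in the WT lines. Runx3 had 0.71 and 0.93 in the MUT lines at day 3, against 1.28 and 1.39 in the WT lines, and 0.59 and 0.80 against 1.67 and 2.07 with XAV. T had 2.10 and 2.18 in the MUT lines at day 3, against 2.58 and 1.89 in the WT lines, and 1.88 and 2.43 against 2.52 and 2.54 with XAV. Groups thus were apart at Emx2 and Runx3 at day 3 and overlapped at T, where MUT and WT lay apart at day 5.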

How the data were processed

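Per the labels, H3K27me3 was profiled by CUT&RUN. The authors' processing notes name Trim Galore, Bowtie, Picard and SEACR for trimming, alignment to GRCm38, duplicate removal and peak calling. Peaks were called per library under the stringent setting, and the SEACR version is not given in the sources used here. The deposited peak files hold total and highest signal for each peak as coverage not scaled for library size, so the depth is unknown and only values relative to a library's own median were compared. The 4 deposited region lists, made with DiffBind 3.0.15, were used as regions only.

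Peaks of the 4 libraries were merged where at least 1 bp overlapped. Promoters were 1.5 kb to either side of the starts of 21853 protein-coding genes. Calls were compared with all peaks and with the 1191 strongest of each library. Log2 relative signal in the 926 shared regions was compared with limma 3.58.1 (R 4.3.3, lmFit, eBayes with trend, Benjamini-Hochberg adjustment over all 926 regions), which was tested on simulated data. Other steps used Python 3.11.15, pandas 2.3.3, SciPy 1.17.1 and pysam 0.24.0. The 2 lines of a genotype are the replicates, and p-values measure only the spread between these lines. Named regions were the 10 of largest difference past the test in each direction, or of lowest p where fewer passed. Named promoters were the 10 of best mean rank with each pattern, up to 4 genes of each list by size of difference with its members of either pattern, and genes the study names. Alternatives were the same number of peaks by total or highest signal, the same covered bases, a stricter threshold, other overlaps, signal measures and normalisations, and each line left out. The members and lists were chosen with earlier results of these data known. Some genes that meet the rule are not reported here.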

Additional observations from a re-analysis of the deposited data

How the results depend on the processing

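Regions with a peak in both MUT lines and neither WT line numbered 83, against 49 with the same number of peaks by highest signal and 11 with the same covered bases, and 84 to 1450 when 1 line was left out (1450 without CM69, 171 without WT72). The opposite regions numbered 9, against 64 with the same number of peaks, 67 by highest signal, 110 with the same covered bases and 4 with a stricter threshold, and 9 to 157 when 1 line was left out (157 without CM59, 21 without WT70). MUT-only promoters numbered 83, against 50 by highest signal and 17 with the same covered bases, and 83 to 1137 when 1 line was left out (1137 without CM69, 166 without WT72). WT-only promoters numbered 7, against 43 with the same number, 48 by highest signal, 82 with the same covered bases and 2 with a stricter threshold, and 7 to 113 when 1 line was left out (113 without CM59). The cause was not tested.

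Regions higher and lower by limma numbered 3 and 14, against 20 and 60 when a peak in at least 3 libraries sufficed, 1 and 1 by highest signal, 1 and 0 per covered base, 5 and 11 with the spread estimated with the KO libraries, and 0 and 0 with loess normalisation (chosen after seeing the data), quantile normalisation, the same number of peaks, and each line left out (0 to 0, where the lone line is assumed to vary like the other group). Among regions named for their difference, per covered base the direction turned at Npas3 (-0.0634), Insyn1 (-0.0819), HoxA (0.0224), the region 36018 bp from Tmem33 (0.10) and the region near Msx2 (-0.41, and -0.11 by highest signal). Among other named genes it turned per covered base at Foxa2 (0.0251), Npr3 (-0.0306), Hes3 (-0.05) and Sox1 (0.0266). The MUT minus WT share of TET, DNMT and Polycomb promoters was 2.27 points, against 0 with the same number of peaks and 0 to 4.55 when 1 line was left out, and that of genes named in the study 9.68, against 0 to 19.4. The log2 ratio of peak numbers was 0.47, and -0.16 to 1.10 when 1 line was left out. No paired analysis was possible because the MUT and WT lines carry different numbers. A design of 2 lines against 2 and an unknown depth limit every comparison.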
